A study of Arabidopsis thaliana with 12 samples.

Results

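miR394 is a microRNA (miRNA) family of Arabidopsis thaliana, and all tables held 1 entry of it, named ath-miR394a;ath-miR394b-5p. Every entry named miR394 was taken, from either strand, which gave 1 of the 240 different entries in the 12 libraries. The entry joins the mature products of MIR394a (AT1G20375) and MIR394b (AT1G76135), so reads from the 2 genes cannot be told apart. No entry for the opposite arm of either precursor was among the 240. The family was chosen by its measured RPM in the ACL5 lines, which exceeded that in the EN7 lines, so that difference is given below as a description with no test.

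miRNAs are short RNAs cut from a folded precursor and loaded into an ARGONAUTE protein, in plants mostly ARGONAUTE1 (AGO1), which they guide to matching transcripts. The main known target of miR394 in Arabidopsis is LCR (LEAF CURLING RESPONSIVENESS, AT1G27340), a gene for an F-box protein, that is, the substrate-binding part of a ubiquitin ligase. In the shoot meristem, miR394 is made in the outermost cell layer and moves inward, where its repression of LCR keeps the cells below competent as stem cells. miR394 is therefore counted among the plant miRNAs that act outside the cells that make them, but movement was not measured here, and neither was the LCR transcript.

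Small RNAs of ecotype Col-0 were sequenced in 6 groups of 2 libraries. The ACL5 ktn1-20 and ACL5 WT groups hold AGO1-bound small RNA from 9-day-old roots carrying GFP-tagged AGO1 under the ACL5 promoter, which drives expression in metaxylem and procambium, the conducting and precursor tissue of the root centre. The EN7 ktn1-20 and EN7 WT groups hold the same from roots carrying GFP-tagged AGO1 under the EN7 promoter, active in the endodermis, the layer around that tissue. The seedling ktn1-20 and seedling WT groups hold total small RNA of 14-day-old seedlings with no transgene. ktn1-20 is a mutant allele of KTN1 (AT1G80350), the gene for the subunit of katanin that cuts microtubules, and WT plants lack the mutation. The 4 root groups thus share a tagged AGO1 that differs between lines only in its promoter, as far as the labels say. The labels do not give the number of plants in a library or of independent transgenic lines, so p-values measure only the spread between these libraries, which may be technical. Tables of miRNAs hold no transcripts that mark xylem, procambium or endodermis, and therefore neither the layer labels nor the KTN1 genotype could be checked.

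Values were deposited as RPM, the reads of an entry per 1000000 reads. The deposited numbers were whole multiples of the smallest value in each table, from which denominators of 5804745 to 13004041 reads in the AGO1 libraries and of 13769316 to 44332443 reads in the seedling libraries were inferred. In a principal component analysis of 80 AGO1-bound entries outside miR394, miR165 and miR166, component 1 carried 54.6% of the variance. On it, EN7 WT replicate 1 (-6.60) fell beside 3 ACL5 libraries (-8.35 to -7.15). ACL5 ktn1-20 replicate 2 (1.66) lay nearer to the other EN7 libraries (7.21 to 12.7). On component 1 these 2 libraries stand apart from their groups. The miR394 values without each of them are given beside the results that rest on them. Component 2 carried 24.7% of the variance. On it, ACL5 ktn1-20 replicate 2 (7.88) lay beside replicate 1 of its group (7.64). EN7 WT replicate 1 (-9.54) lay below all other libraries there, and the ACL5 libraries spanned -1.69 to 7.88.

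AGO1-bound miR394 was at a higher level in the ACL5 lines than in the EN7 lines, in both genotypes. Its level was 180.6 and 322.4 RPM in the ACL5 ktn1-20 libraries, against 108.7 and 106.1 RPM in the ACL5 WT libraries. In the EN7 lines it was 7.38 and 2.85 RPM in ktn1-20 and 8.14 and 1.30 RPM in WT. All 4 ACL5 libraries lay above all 4 EN7 libraries, and the lowest ACL5 library held 13.0 times the RPM of the highest EN7 library. Of the 86 entries that reached 10 RPM in 2 or more AGO1 libraries, 12 (14.0%) had all 4 ACL5 libraries above all 4 EN7 libraries. All EN7 libraries held less than 10 RPM of miR394, so it is among the 86 only because its ACL5 libraries were higher.

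**Figure D1:**
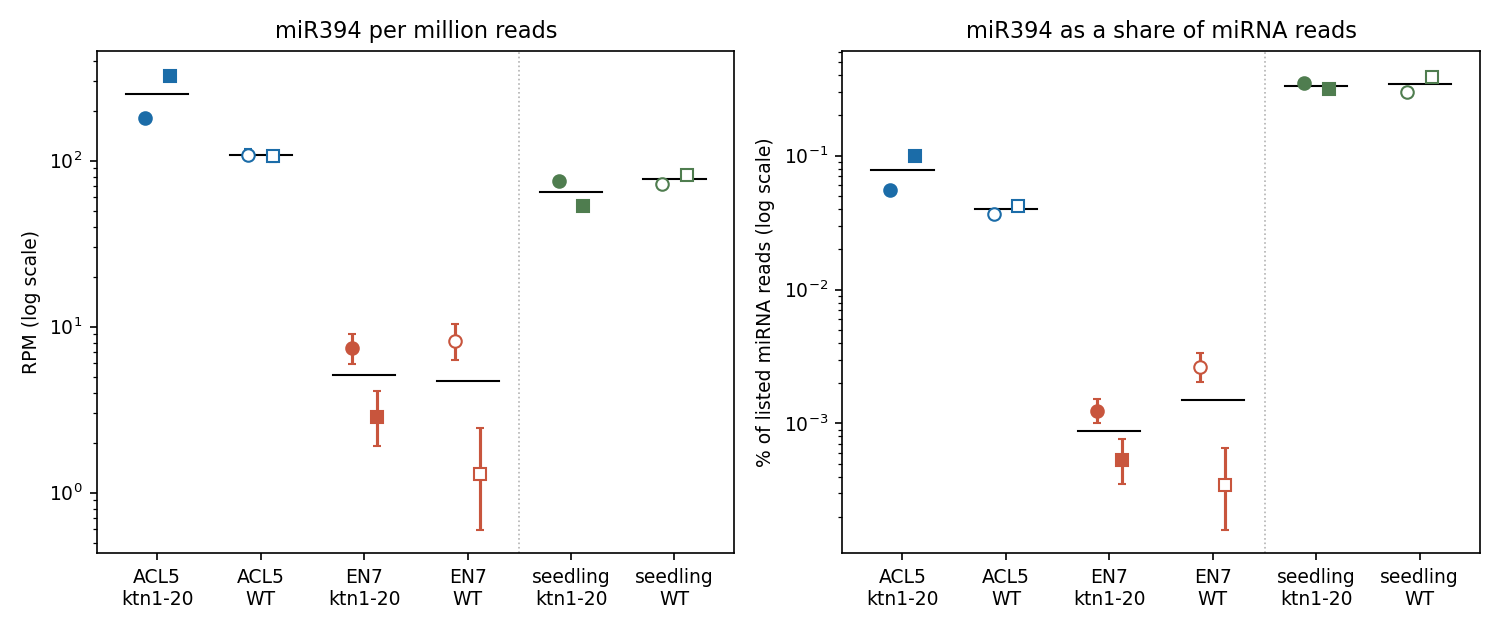
Level of miR394 in each library, in RPM on a log axis (left) and as a percentage of all listed miRNA reads on a log axis (right); circles are replicate 1, squares replicate 2, filled symbols ktn1-20, open symbols WT, vertical bars 95% counting intervals and horizontal lines group means. The 4 ACL5 libraries (106.1 to 322.4 RPM) lie above the 4 EN7 libraries (1.30 to 8.14 RPM), and seedlings (53.1 to 82.4 RPM) are total RNA of another tissue and age.

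The number of reads behind these values, inferred from the smallest value of each table, differed between the lines. The ACL5 values correspond to 1643 and 3020 inferred reads in ktn1-20 and to 755 and 616 in WT. The EN7 values correspond to 96 and 29 inferred reads in ktn1-20 and to 64 and 9 in WT, so miR394 stood above the floor of 3 reads in every EN7 library. The 95% Poisson interval of the lowest value, in EN7 WT replicate 2, ran from 0.593 to 2.46 RPM, and that of EN7 WT replicate 1 from 6.27 to 10.4 RPM. The EN7 WT replicates thus differed by more than counting error, and by a factor of 6.28. These intervals rest on the inferred reads and cover counting error only, because the tables do not tell PCR copies of a molecule apart. EN7 WT replicate 1, which stood beside the ACL5 libraries on the first component, was the EN7 library with the highest miR394 level. ACL5 ktn1-20 replicate 2, the ACL5 library nearest to EN7 on that component, was the ACL5 library with the highest miR394 level. The part of these library positions in the values was not tested.

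In log2(RPM + 1), the ACL5 minus EN7 difference was 5.42 in ktn1-20 and 4.56 in WT. The group means were 252 ± 100.3 RPM in ACL5 ktn1-20 and 5.11 ± 3.21 RPM in EN7 ktn1-20, a ratio of 49.2 (SD, n = 2 each). They were 107 ± 1.86 RPM in ACL5 WT and 4.72 ± 4.84 RPM in EN7 WT, a ratio of 22.8 (SD, n = 2 each). With one library left out at a time, the difference ranged over 4.85 to 5.98 in ktn1-20 and over 3.57 to 5.56 in WT. Without the libraries that stand apart on component 1, it was 5.0 in ktn1-20 (ACL5 replicate 2 left out) and 5.56 in WT (EN7 replicate 1 left out). The difference in WT was the highest among the 86 entries, and that in ktn1-20 was exceeded by miR396a-3p (6.02) and miR165a-5p (5.76). The median entry differed by 0.91 in ktn1-20 and by 0.39 in WT. RPM is scaled within each library, so these values do not measure the number of cells under a promoter or the tagged AGO1 per cell. The cause of the difference was not tested.

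**Figure D2:**
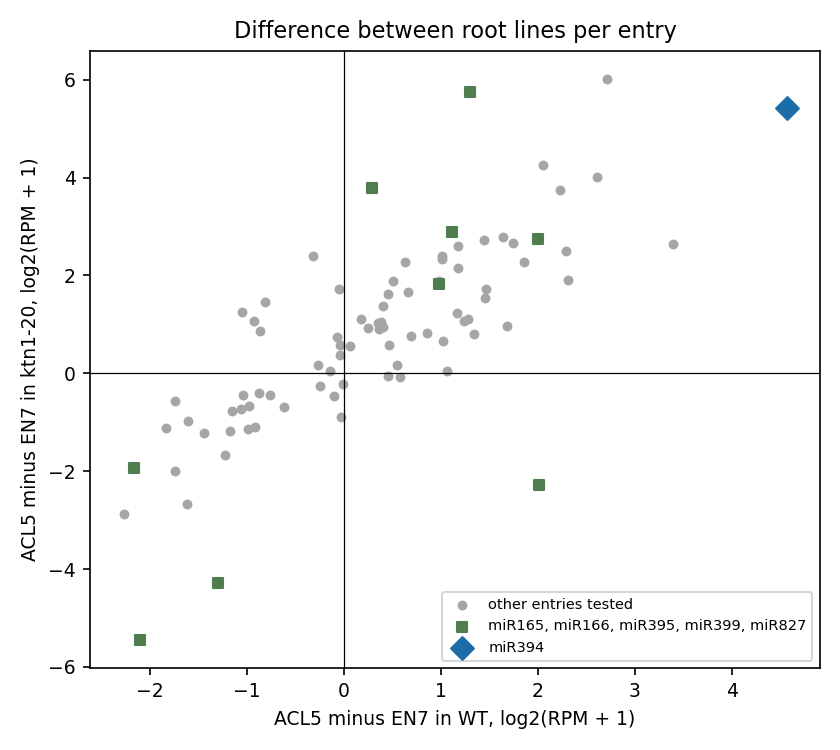
ACL5 minus EN7 difference in log2(RPM + 1) for each of 86 entries, in ktn1-20 on the vertical axis and in WT on the horizontal axis. miR394 (blue diamond) lies at 5.42 in ktn1-20 and 4.56 in WT; green squares are entries of miR165, miR166, miR395, miR399 and miR827, which lie in several directions from the origin.

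The same reads can be given as a share of the miRNAs of a library, which adds no independent evidence on the lines. The share of miR394 among all listed miRNA reads was 0.0556% and 0.10% in the ACL5 ktn1-20 libraries and 0.0370% and 0.0424% in the ACL5 WT libraries. In the EN7 lines this share was 0.00124% and 0.000531% in ktn1-20 and 0.00265% and 0.000348% in WT. The lowest of these shares in ACL5 was 13.9 times the highest in EN7. The exact 95% binomial interval was 0.0344% to 0.0397% for that ACL5 share and 0.00204% to 0.00339% for that EN7 share. By level, miR394 ranked 33 and 29 of 185 entries in the ACL5 ktn1-20 libraries and 42 and 43 in the ACL5 WT libraries. It ranked 74 and 80 of 180 entries in the EN7 ktn1-20 libraries and 80 and 109 in the EN7 WT libraries. miR394 was thus in the upper part of the list in every ACL5 library, but it was not one of the most abundant AGO1-bound miRNAs in any of them.

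Whether loss of katanin changed AGO1-bound miR394 was asked within each line. In the ACL5 lines, both ktn1-20 libraries (180.6 and 322.4 RPM) lay above both WT libraries (108.7 and 106.1 RPM), a ratio of means of 2.34. The log2 change was 1.16 (SE 0.80, 95% interval -0.73 to 3.05), and it did not pass the test (adjusted p = 0.584, limma). That interval runs from 0.601-fold to 8.31-fold on the RPM + 1 scale. Of the 86 entries, 4 (4.65%) passed in this comparison, and 21 (24.4%) had both ktn1-20 libraries above both WT libraries. The median log2 change over entries was -0.0019. Without ACL5 ktn1-20 replicate 2, which stands apart on the first component, the miR394 change was 0.74 (adjusted p = 0.804, limma), and without ACL5 ktn1-20 replicate 1 it was 1.58 (adjusted p = 0.458, limma).

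The spread between replicates differed between the genotypes in ACL5. The replicates of miR394 differed by 0.83 on the log2 scale in ACL5 ktn1-20 and by 0.035 in ACL5 WT, against medians of 0.88 and 0.38 over the 86 entries in the same groups. In the EN7 lines they differed by 1.12 in ktn1-20 and by 1.99 in WT, against medians of 0.59 and 0.93. Since all 4 groups share 1 estimate of the spread per entry, the wide spread of the low EN7 values enters the SE of the ACL5 change.

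In the EN7 lines, the genotypes overlapped. miR394 was at 7.38 and 2.85 RPM in ktn1-20, against 8.14 and 1.30 RPM in WT, a ratio of means of 1.08. The log2 change was 0.31 (SE 0.80, 95% interval -1.59 to 2.20, adjusted p = 0.864, limma), and it became -0.29 when libraries were rescaled to equal summed miRNA RPM. With miR165 and miR166 left out of those sums, it was 0.26. Of the 86 entries, 6 (6.98%) passed in this comparison. The median log2 change over entries was -0.47, and relative to it the miR394 change was 0.78 as deposited. After rescaling to equal sums of all listed miRNAs, it was 0.88 relative to the median. Listed miRNAs made up 59.5% and 53.6% of the denominators in the EN7 ktn1-20 libraries and 30.7% and 37.2% in the EN7 WT libraries. Without EN7 WT replicate 1 the change was 1.31 (adjusted p = 0.575, limma). Without EN7 WT replicate 2 it was -0.69 (adjusted p = 0.583, limma), and without EN7 ktn1-20 replicate 1 it was -0.25 (adjusted p = 0.861, limma). A change of miR394 in EN7 was therefore not detectable, and even its sign depended on single libraries.

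Whether the ktn1-20 change differed between the lines was tested as an interaction. The ACL5 change minus the EN7 change was 0.85 (SE 1.13, 95% interval -1.83 to 3.53, adjusted p = 0.970, limma). Of the 86 entries, 2 (2.33%) passed, and the median was 0.45. Without ACL5 ktn1-20 replicate 2 the interaction of miR394 was 0.43 (adjusted p = 0.969, limma), and without EN7 WT replicate 1 it was -0.15 (adjusted p = 0.971, limma). An interaction of several-fold in either direction is within the interval, so the test does not show that the lines responded alike.

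**Figure D3:**
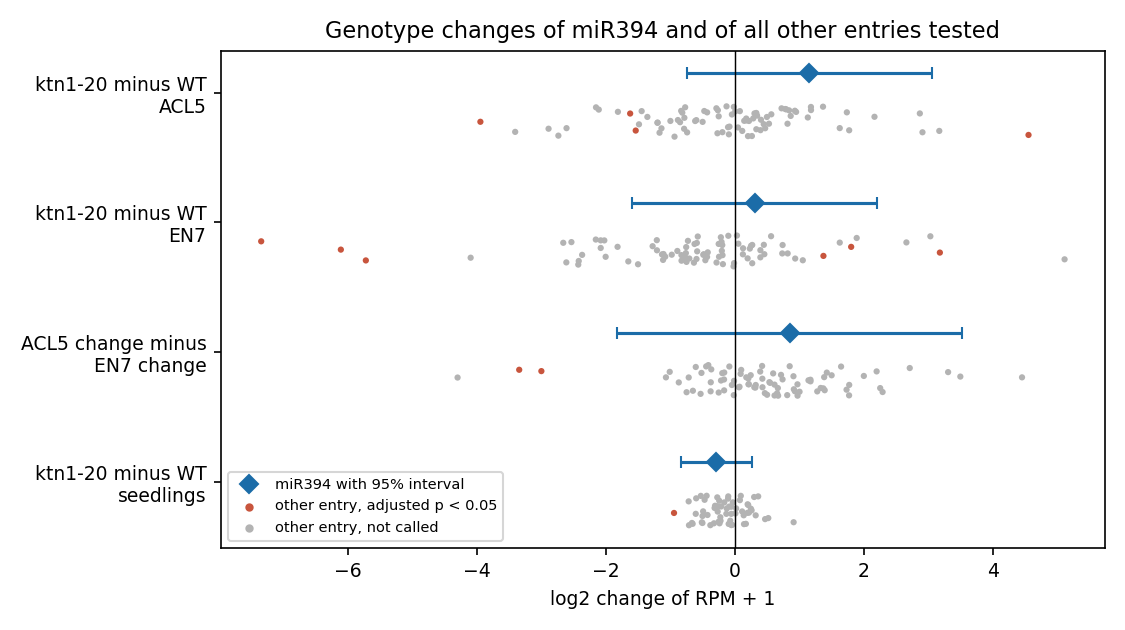
Log2 change of RPM + 1 for miR394 (blue diamonds, bars are 95% intervals) above that of every other entry tested (points; red where the adjusted p is under 0.05). All 4 intervals of miR394 contain 0, from the change of 1.16 in ACL5 to that of -0.28 in seedlings.

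In total small RNA of whole seedlings, the RPM of miR394 lay between those of the ACL5 and EN7 libraries. Listed miRNAs were a far smaller part of seedling reads, so RPM does not rank seedlings against AGO1 libraries. miR394 was at 75.7 and 53.1 RPM in seedling ktn1-20 and at 72.7 and 82.4 RPM in seedling WT, and the genotypes overlapped. The means were 64.4 ± 15.9 RPM in ktn1-20 and 77.5 ± 6.85 RPM in WT (SD, n = 2 each). The log2 change was -0.28 (SE 0.28, 95% interval -0.83 to 0.27, adjusted p = 0.652, limma). Of the 62 entries tested, 1 (1.61%) passed, and the median over entries was -0.13. The interval leaves room for a level in ktn1-20 from 0.561-fold to 1.20-fold that in WT. This fit had 124 degrees of freedom from 4 libraries, because the spread was taken almost wholly from the trend across entries, and the interval treats entries of the same library as independent. Relative to the median entry, the change was -0.16.

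miR394 took a larger share of miRNA reads in seedlings than in either set of AGO1 libraries. The share was 0.349% and 0.316% in seedling ktn1-20 and 0.297% and 0.389% in seedling WT. miR394 ranked 23 and 24 of 223 entries in seedling ktn1-20 and 25 and 24 in seedling WT. Listed miRNAs made up 1.68% to 2.45% of the reads in the seedling libraries, and tissue, age and assay all differ from those of the root libraries, so no test was made between them.

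Other miRNA families known to move between cells or through grafts were set beside miR394. miR165 and miR166 repress HD-ZIP III transcription factors, miR395 regulates sulfate uptake and assimilation, and miR399 and miR827 act in the response to phosphate starvation, as does miR2111. These 6 families had 16 entries, of which 9 reached the minimum level in the AGO1 libraries. Their line differences went in both directions: in ktn1-20, 5 entries were higher and 4 lower in ACL5 (median 1.83, against 0.91 over all 86 entries). In WT, 6 were higher and 3 lower (median 0.98, against 0.39).

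Among the most abundant entries of these families, miR395b/miR395c/miR395f leaned the same way as miR394, with ACL5 minus EN7 differences of 2.74 in ktn1-20 and 2.00 in WT. It held 4665 and 2012 RPM in ACL5 ktn1-20 against 481 and 435 RPM in EN7 ktn1-20. In WT it held 1927 and 3265 RPM in ACL5, against 632 and 623 RPM in EN7. All its ACL5 libraries therefore lay above its EN7 libraries, as for 12 (14.0%) of the 86 entries and 2 of the 9 mobile entries. The other of these 2 was miR395a/miR395d/miR395e. The miR399b/miR399c-3p entry leaned the other way, with differences of -1.94 in ktn1-20 and -2.16 in WT. The difference of miR827 was -2.28 in ktn1-20 and 2.02 in WT, and its level ranged from 4.33 to 505 RPM over the EN7 libraries. The guide strands of miR165 and miR166 had differences of -5.45 and -4.29 in ktn1-20 and of -2.10 and -1.30 in WT. miR2111 did not reach the minimum, and its most abundant entry was at 0 to 2.30 RPM. These mobile families thus did not share 1 pattern across the lines.

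For the ktn1-20 change, 3 of the 9 entries fell in ACL5 and none rose, where 4.65% of all 86 entries passed (limma; median -1.53, against -0.0019 over the 86). In EN7 2 rose and 3 fell, where 6.98% of the 86 passed (limma; median -0.20, against -0.47). After rescaling to equal summed miRNA RPM, no entry of the 86 rose in EN7 and 7 fell. With miR165 and miR166 left out of those sums, 3 of the 86 rose and 3 fell, the same numbers as with the deposited RPM. With the deposited RPM, all called entries among the 9 belonged to miR165 or miR166. In ACL5, the log2 change was 0.29 for the most abundant miR395 entry (adjusted p = 0.856), 0.0090 for that of miR399 (adjusted p = 0.992) and 0.82 for miR827 (adjusted p = 0.856, limma). In seedlings 7 entries were tested and none passed (limma; 0 had an unadjusted p under 0.05), with a median of 0.095 against -0.13 over the 62 entries.

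miR393, whose targets are the TIR1 and AFB F-box auxin receptors, also has F-box targets. Its guide strand, miR393a-5p/miR393b-5p, was at 1.21 and 0.427 RPM in ACL5 ktn1-20 and at 0.288 and 0 RPM in ACL5 WT. In EN7 it was at 0.0769 and 0 RPM in ktn1-20 and at 0.254 and 0.864 RPM in WT, so it stayed under 2 RPM in every AGO1 library. The only miR393 entry that reached the minimum was miR393b-3p, known in Arabidopsis as a strand loaded into AGO2. It was at 4.18 and 5.66 RPM in ACL5 ktn1-20 and at 17.7 and 11.0 RPM in ACL5 WT. In EN7 it was at 4.38 and 1.08 RPM in ktn1-20 and at 12.6 and 1.58 RPM in WT, so its lines overlapped. Its ACL5 minus EN7 difference was 0.81 in ktn1-20 and 1.34 in WT, and its Pearson's r with miR394 in log2(RPM + 1) over the 8 AGO1 libraries was 0.56, given as a description. Its log2 change was -1.35 in ACL5 (adjusted p = 0.584, limma) and -0.83 in EN7 (adjusted p = 0.676, limma).

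Of 63 entries in 16 families that regulate development (miR156, miR157, miR159, miR160, miR164 to miR167, miR169 to miR172, miR319, miR390, miR393 and miR396), 32 reached the minimum in the AGO1 libraries. In ACL5 none rose and 3 fell in ktn1-20 (median -0.60, against -0.0019 over all 86 entries), and in EN7 2 rose and 3 fell (median -0.35, against -0.47; limma). These are the miR165 and miR166 entries already counted, with the same shares of 4.65% and 6.98% over all entries. In EN7, the guide strands rose and the opposite-arm entries fell. In seedlings 1 of 31 tested entries fell, of miR157, where 1.61% of all entries passed. The median ACL5 minus EN7 difference of the 32 entries was 0.78 in ktn1-20 and 0.43 in WT, against 0.91 and 0.39 over all 86.

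The entries whose levels followed miR394 most closely over the 8 AGO1 libraries were named by Pearson's r of log2(RPM + 1), as a description. They were miR780.1 (r = 0.96), miR447a.2-3p (0.94), miR395a/miR395d/miR395e (0.93), miR171a-5p/miR170-5p (0.93) and miR395b/miR395c/miR395f (0.90). Over the 85 other entries r ranged from -0.91 to 0.96, with a median of 0.34. The libraries fall into ACL5 and EN7 groups, libraries of a line share its transgene, and r includes the gap between lines for which miR394 was chosen. For each of these 5 entries, all 4 ACL5 libraries lay above all 4 EN7 libraries, as for 12 (14.0%) of the 86 entries. Choice by r with miR394 favours such entries, so this is no independent evidence. Within a line, with 4 libraries, not all of them followed miR394: in ACL5 ktn1-20 replicate 2, where miR394 was highest, miR447a.2-3p was at its lowest ACL5 level (37.7 RPM).

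Between the lowest ACL5 and the highest EN7 library, the gap was wider for miR394 than for the entries most like it. miR394 was chosen for its difference between the lines, so this is a description only. miR780.1 was at 18.6 and 23.4 RPM in ACL5 ktn1-20 and at 5.19 and 7.06 RPM in WT of that line. It was at 0.308 and 0 RPM in EN7 ktn1-20 and at 1.02 and 0.432 RPM in EN7 WT. Its log2 change in ACL5 was 1.63 (adjusted p = 0.173, limma). It reached 10 RPM in the ACL5 ktn1-20 libraries alone, so it is among the entries tested only because it was higher there. The order of its lines and of its genotypes in ACL5 is therefore no independent evidence. miR447a.2-3p was at 37.7 to 45.1 RPM in the ACL5 libraries and at 11.3 to 15.8 RPM in the EN7 libraries, with a log2 change of -0.09 in ACL5 (adjusted p = 0.946, limma). miR171a-5p/miR170-5p, from the arm opposite to the strands that target GRAS transcription factors, was at 8.36 to 25.3 RPM in ACL5 and at 2.06 to 3.03 RPM in EN7. It too passed the 10 RPM filter only through ACL5 libraries, so the order of its lines is no independent evidence. In RPM + 1, the lowest ACL5 library exceeded the highest EN7 library by a factor of 11.7 for miR394 and of 3.07 for miR780.1, the next of the 12 entries. The added 1 lowers the factor of miR780.1, whose EN7 values were 1.02 RPM or less, more than that of miR394.

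**Figure D4:**
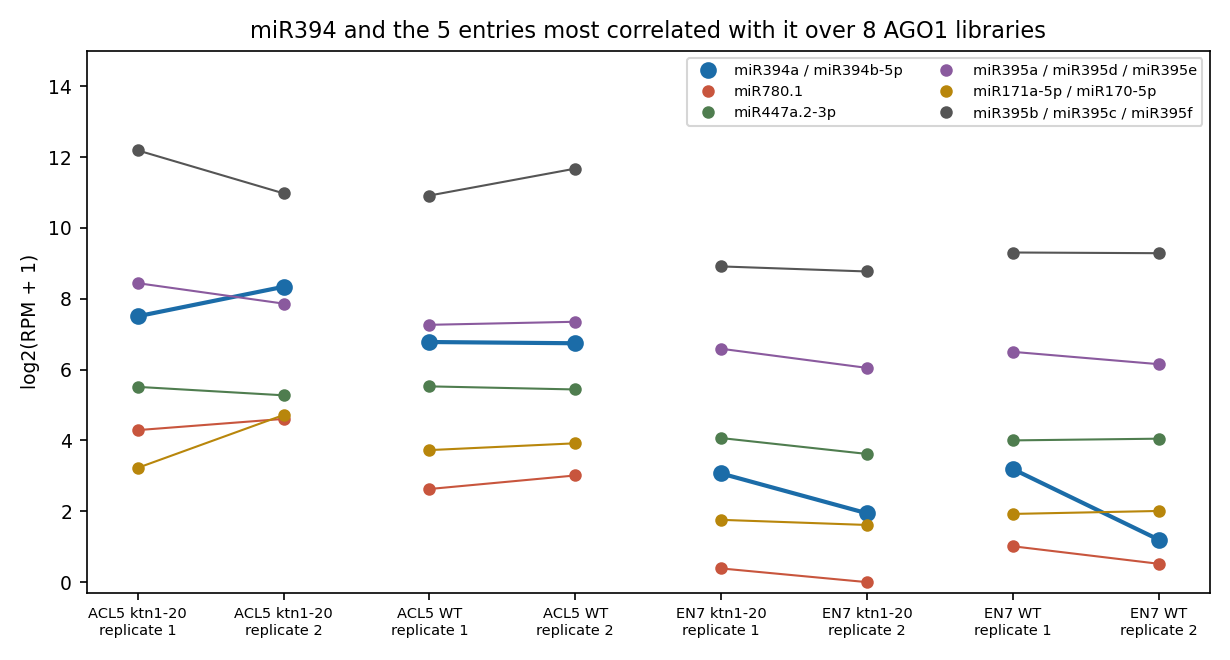
Level in log2(RPM + 1) of miR394 and of the 5 entries with the highest Pearson correlation to it, in the 8 AGO1 libraries; lines join the replicates of a group. Each entry is higher in the 4 ACL5 libraries than in the 4 EN7 libraries, and miR394 has the widest gap between its lowest ACL5 and highest EN7 library.

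On the gene annotation of assembly TAIR10.1 (RefSeq), MIR394a lies between the protein-coding genes AT1G20370 and AT1G20380, and MIR394b between the long non-coding RNA gene AT1G09607 and the protein-coding gene AT1G76140, with no overlapping gene listed for either precursor.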

How the data were processed

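Small RNA libraries were made with a NEBNext kit from GFP-Trap immunoprecipitates of roots or from TRI Reagent extracts of seedlings, per the labels' protocols. The submitters' processing notes name cutadapt, Bowtie and genome build TAIR10; versions, settings, the miRNA annotation and the counting are not given in the sources used here. The authors deposited RPM values, 1 table per library, judged from the values, and which reads the denominator counts is not stated. Within each table, the lowest value was taken as 1 read, since 100% of the values other than 0 came out as whole multiples of it (tolerance 0.01). These inferred reads serve for depths, intervals at the 95% level and the floor of 3 reads, and no count-based test was run. An entry absent from a table was taken as 0.

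Values were analysed as log2(RPM + 1), which understates changes of low entries. Entries that reached 10 RPM in 2 or more libraries of a fit were tested with limma 3.58.1 in R 4.3.3 (mean-variance trend, two-sided, Benjamini-Hochberg over all entries tested, threshold 0.05). One fit took the 8 AGO1 libraries, with a mean for each of 4 groups, and another the 4 seedling libraries. The fit was also run on simulated data with normal noise and changes larger than those of miR394. Its outcome is not given here, and it does not bear on changes of the size seen for miR394. Descriptions used Python 3.11.15, pandas 2.3.3, NumPy 2.4.6, SciPy 1.17.1 and matplotlib 3.10.9.

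miR394 and the family lists were chosen with earlier results of these data known. Named beside miR394 were the 5 entries with the highest Pearson correlation to it over the AGO1 libraries, and the most abundant entry of each listed family (for miR393, also the guide strand). Alternatives were other pseudocounts, filters and scalings, no trend, a replicate block and leaving out each library. No control immunoprecipitation was analysed here, and no mature sequences were used here.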

Additional observations from a re-analysis of the deposited data

How the results depend on the processing

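The miR394 change did not pass 0.05 in any comparison under any alternative run; the lowest adjusted p (limma) was 0.328 in ACL5, 0.575 in EN7, 0.428 for the interaction and 0.294 in seedlings. Its value ranged over 0.72 to 1.58 in ACL5 and over -0.53 to -0.028 in seedlings, without a change of sign. In EN7 it was -0.29 after rescaling to equal summed miRNA RPM, and 0.26 with miR165 and miR166 left out of the sums. The EN7 change ranged over -0.69 to 1.31 when 1 library was left out, and the interaction then ranged over -0.15 to 1.85. The descriptive ACL5 minus EN7 difference in ktn1-20 was 4.64 with a pseudocount of 5. Leaving out 1 library, where a lone sample is assumed to vary like the other groups, gave 1 to 9 calls in ACL5, 5 to 19 in EN7, 2 to 4 for the interaction and 0 to 10 in seedlings. Calls in ACL5 numbered 7 with no filter, 7 with sums equalised without miR165 and miR166 (1 higher and 6 lower, against 1 and 3) and 2 without a trend. Rescaling to equal sums gave 0 higher and 7 lower calls in EN7, against 3 and 3 as deposited and 3 and 3 with miR165 and miR166 left out of the sums. Without a trend, limma called 0 entries for the interaction (8 at an unadjusted p under 0.05). In seedlings limma called 4 entries with no filter and 0 with a pseudocount of 5, a filter of 50 RPM, either rescaling, no trend or a replicate block (5, 3, 10, 10, 6 and 8 at an unadjusted p under 0.05).

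Same-numbered libraries deviated from their group means with correlations across entries of -0.48 in ACL5, 0.42 in EN7 and 0.18 in seedlings, so the numbers were not taken as pairs. With the replicate block the miR394 change was 1.16 in ACL5 (adjusted p = 0.464, limma), 0.31 in EN7 (adjusted p = 0.848), 0.85 for the interaction (adjusted p = 0.962) and -0.28 in seedlings (adjusted p = 0.526). Crossed numbers in ACL5, added after seeing the data, gave 4, 13 and 2 calls in ACL5, EN7 and the interaction. The causes of these differences were not tested. A count-based test planned on inferred reads was not run, because each table held fewer low values than the preset check of the inferred step required. Read numbers and counting intervals rest on that inference. EN7 values correspond to 9 to 96 inferred reads, which limits what can be seen there.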
